A study of Homo sapiens with 9 samples.

Results

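HCC827 is an established human lung adenocarcinoma line that depends on an activating mutation of the epidermal growth factor receptor gene EGFR. The data described here are the 3 libraries of HCC827 cells that stably carried a control hairpin, labelled NS, out of 9 libraries in the series. They were chosen by that label, and every one of the 60675 genes in the count table was read in them. The other 6 libraries carry hairpins against CBX5 and are not used. All 3 control libraries come from 1 cell line with a hairpin construct, grown in DMEM with serum and antibiotics and without an EGFR inhibitor named in the labels. They therefore show cultured, transduced cells and not a tumour with its stroma. The series' design text calls the 3 libraries biological replicates, and the labels do not say whether they came from separate transductions, so the spread given below may be partly technical.

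A lung adenocarcinoma cell is an epithelial cell. Such cells build their cytoskeleton from simple keratins, hold to each other through E-cadherin and claudins, and may keep features of alveolar cells, which make surfactant, or of airway secretory cells, which make mucins and antimicrobial proteins. In the ERBB family, a ligand such as TGF alpha or amphiregulin brings EGFR together with itself or with ERBB2 or ERBB3, and the active receptor feeds the RAS and MAP kinase cascade and the PI3K and AKT pathway. ERK at the end of the cascade induces both growth genes such as CCND1 and its own brakes, the DUSP, SPRY and SPRED genes. An activating EGFR mutation lets the receptor signal with little ligand.

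Levels are given on 2 scales. CPM gives a gene's count per 1000000 counts of its library. TPM first divides the count by the length of the gene's exons and then scales all genes to a sum of 1000000, so that only TPM is used to compare different genes. A gene was counted as detected at 1 CPM or more in each of the 3 libraries, and listed at 0 when all 3 libraries had 0 counts. Genes between these limits are termed low. Values after ± are SDs over the 3 libraries. Genes are said not to differ beyond their spread where their ranges over the 3 libraries overlap, whatever their order within each library. Every result is a description of 1 group, and no test was made.

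Total counts were 12701561, 14414700 and 16030488 in control libraries 1, 2 and 3. A count of 0 allows up to 3 counts, which is 0.236, 0.208 and 0.187 CPM in these libraries for counting error alone. By the detection rule, 11925 of 60675 genes were detected, 9539 were low and 39211 were at 0. Pairs of libraries differed by more than sampling noise, the chi-square of their counts over its degrees of freedom being 2.66 to 4.90, so they were kept as 3 separate libraries. For 8679 detected genes with a mean of at least 10 CPM, the median coefficient of variation (CV, the SD as a percent of the mean CPM) was 5.10%, where counting alone gives 3.91%. Between any 2 of the libraries, 89.0% to 90.9% of detected genes lay within 1.25-fold of each other.

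Protein-coding genes took 95.2% of all counts. Of 19693 coding genes, 10960 (55.7%) were detected, 3717 were low and 5016 were at 0, and the median level over all of them was 2.49 TPM. Among the detected coding genes the median was 17.5 TPM, 10% lay under 2.42 TPM and 10% above 90.6 TPM. Levels of at least 100 TPM were reached by 947 of them and levels of at least 1000 TPM by 50. Long non-coding genes took 1.02% of the counts, with 654 of 14330 detected.

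Many zeros in the table cannot be read as absence, and this bears on every list below. Coding genes with no exon base inside the body of another annotated gene were at 0 in 2097 of 9752 cases (21.5%). Where 90% or more of the exon bases lay inside another gene's body, on either strand, 2213 of 2484 (89.1%) were at 0. For genes that lay wholly inside genes of the opposite strand only, 821 of 840 (97.7%) were at 0. Genes that every growing cell uses were among them: HNRNPA1, an abundant RNA-binding protein gene, TMSB10, which encodes an actin-binding thymosin, EEF1G, TUBA1B and SERF2 all had 0 counts in all 3 libraries. Genes with 90% or more of their exon bases inside other genes are termed overlapped in what follows. Their zeros are listed as zeros and were not taken as a level, and the median of a list is given over its members that are not overlapped. Over the 17209 coding genes that are not overlapped, 63.2% were detected and the median was 5.50 TPM. Counts of detected members are out of the whole list. They are to be read beside the 55.7% of all coding genes that were detected, or the 63.2% where no member is overlapped. Zeros are likewise not taken as a level for the lung lineage factor NKX2-1, which lies inside antisense genes, and for SOX2, which lies inside SOX2-OT. The tumour suppressors CDKN2A and CDKN2B are treated in the same way.

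**Figure D1:**
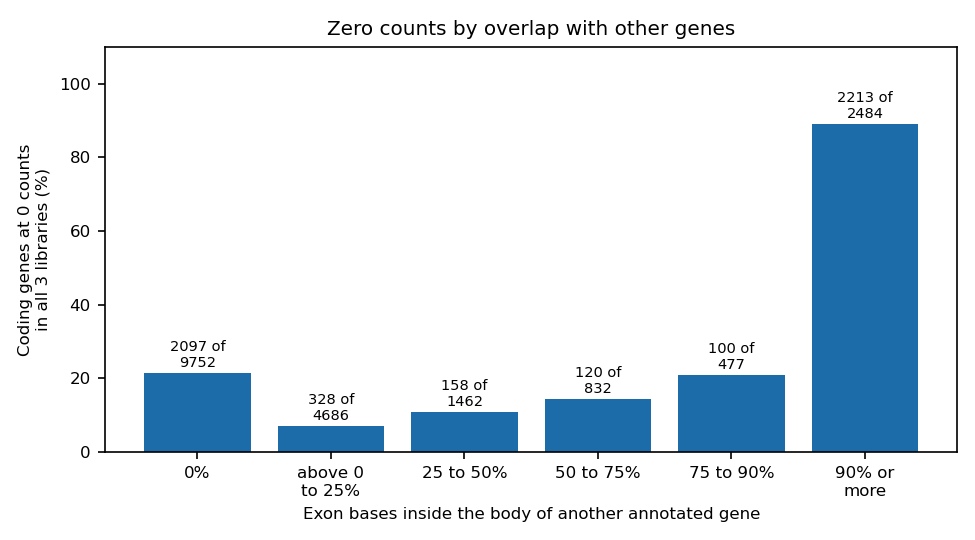
Percent of protein-coding genes with 0 counts in all 3 control libraries (vertical axis, from 0) by the share of their exon bases inside the body of another annotated gene (horizontal axis), with the number at 0 of the number of genes above each bar. The share is 21.5% without overlap, under 22% in each bin up to 90%, and 89.1% in the last bin.

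Promoter sequence differed between genes that were read and genes that were not. Promoters in vertebrates fall into CpG-rich ones, which serve most widely used genes, and CpG-poor ones, often with a TATA box, which serve many tissue-restricted genes. RefSeq's promoter table (GRCh38.p14) matched 13776 of 17196 coding genes that were not overlapped (80.1%). The ratio of observed to expected CpG over 300 bases had a median of 0.846 in 9019 detected genes, 0.511 in 2631 low genes and 0.321 in 2126 genes at 0. The motif TATAAA, read on the gene's strand, was found in the 250 bases before the start in 3.26%, 8.67% and 16.1% of these genes, against 7.18% of all promoters in the table. These are shares across genes, which are not replicates.

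The promoters of 4 genes on which the account turns are printed. EGFR has a CpG-rich promoter and a high level, and the liver gene ALB has few CpG and 0 counts. S100A9 has a CpG-poor promoter and a very high level, and HSPA5 is a stress-responsive chaperone gene. Over 250 bases the ratio of observed to expected CpG was 0.881 in EGFR, 0.545 in ALB and 0.210 in S100A9. The median of genes at 0 was 0.321 over 250 bases, so ALB lay above it. Each printed promoter is the 250 bases before the RefSeq start, 5′ to 3′ on the gene's strand. Capitals mark CpG in EGFR (chr7:55018767-55019016, + strand, 25 CpG), ALB (chr4:73404037-73404286, + strand, 3 CpG) and S100A9 (chr1:153357604-153357853, + strand, 4 CpG, with TATAAA beginning 29 bases before the start). In HSPA5 (chr9:125241344-125241593, - strand) they mark CCAAT and CCACG 9 bases apart, the form of the ER stress response element.
EGFR: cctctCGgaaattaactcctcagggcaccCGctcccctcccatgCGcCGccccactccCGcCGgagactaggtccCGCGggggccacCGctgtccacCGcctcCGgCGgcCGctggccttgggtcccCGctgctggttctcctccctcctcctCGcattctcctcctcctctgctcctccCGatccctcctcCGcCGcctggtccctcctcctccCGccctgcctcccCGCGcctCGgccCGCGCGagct
ALB: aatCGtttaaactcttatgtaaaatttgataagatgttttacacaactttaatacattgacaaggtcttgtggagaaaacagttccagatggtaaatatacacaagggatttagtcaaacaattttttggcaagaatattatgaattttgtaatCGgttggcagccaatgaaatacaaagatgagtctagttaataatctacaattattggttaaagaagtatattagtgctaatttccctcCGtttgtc
S100A9: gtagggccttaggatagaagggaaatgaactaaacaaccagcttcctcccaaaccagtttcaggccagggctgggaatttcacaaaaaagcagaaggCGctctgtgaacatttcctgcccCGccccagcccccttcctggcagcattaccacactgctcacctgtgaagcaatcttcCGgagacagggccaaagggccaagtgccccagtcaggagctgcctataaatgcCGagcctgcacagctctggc
HSPA5: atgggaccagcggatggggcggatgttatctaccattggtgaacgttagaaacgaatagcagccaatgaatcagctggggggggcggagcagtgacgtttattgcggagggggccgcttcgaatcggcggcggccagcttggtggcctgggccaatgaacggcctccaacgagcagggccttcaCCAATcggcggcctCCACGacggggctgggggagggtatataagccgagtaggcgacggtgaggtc

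S100A9, the partner of S100A8 in calprotectin, a protein that epithelia and myeloid cells release, had the highest level of any nuclear gene. It lies on chromosome 1 from 153357854 to 153361027 (ENSG00000163220, GRCh38). Its level was 6408, 5510 and 6057 TPM in libraries 1, 2 and 3, a mean of 5992 ± 453. Its partner S100A8 stood at 702, 542 and 652 TPM, so that S100A9 lay well above it in every library. S100A8 was named after its level had been seen.

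Mitochondrially encoded genes filled the ranks above S100A9. They took 15.0%, 17.7% and 15.6% of the counts in libraries 1, 2 and 3, and 48.5 ± 2.76% of the TPM, the scale that divides by length. Library 2 had the highest share. All 13 mitochondrial protein genes were detected, from MT-ND4, a subunit of respiratory complex I, at 57169 ± 4405 TPM to MT-ND6 at 12560 TPM. MT-ATP8 and MT-ATP6, like MT-ND4L and MT-ND4, overlap each other, so their separate levels are uncertain. Since TPM sums to a fixed total, these genes lower the TPM of every nuclear gene: without them the levels of the nuclear genes named in the text were 1.94 times as high (1.93 to 1.96).

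Below S100A9 came genes of general use. GAPDH stood at 3466 ± 256 TPM, the elongation factor gene EEF1A1 at 3422 ± 197, the ferritin light chain gene FTL at 3212 ± 292 and the actin gene ACTG1 at 2661 ± 208. Of 81 cytosolic ribosomal protein genes 69 were detected, with a median of 464 TPM, and 10 were overlapped. Of 39 core genes of all cells 32 were detected, and 5 of the other 7 were overlapped and at 0. CFL1 (cofilin), with 1 count in all, has 62.7% of its exon bases inside other genes, so its value is not taken as a level.

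Simple epithelial genes were expressed throughout. All 21 simple epithelial and junction genes were detected, with a median of 128 TPM against 5.50 TPM over all coding genes, overlapped genes left out of both. Keratin 18 (KRT18, ENSG00000111057, chromosome 12 from 52948871 to 52952901) was the highest, with 2556, 2396 and 2720 TPM in libraries 1, 2 and 3. Its partner KRT8 stood at 1872, 1594 and 1978 TPM. The KRT8 and KRT18 models overlap, with 26.3% of KRT18's exon bases and 10.7% of KRT8's inside the other, so their ratio is uncertain. KRT19 had 2173, 1884 and 2347 TPM, a range that overlapped that of KRT8, though KRT19 was the higher within each library. KRT7, the keratin that pathologists use to tell lung from many gut tumours, followed at 734, 629 and 788 TPM. These 4 keratins were lowest in library 2, which had the largest mitochondrial share. The median level of detected coding genes was also lowest in library 2 on each autosome and X, so the low place is not particular to keratins.

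Adhesion genes followed the keratins. EPCAM stood at 390, 331 and 353 TPM, the splicing regulator ESRP1, which sets epithelial isoforms, at 268 ± 10.3 TPM, and E-cadherin (CDH1) at 178, 168 and 172 TPM. Plakoglobin (JUP) at 200.1 TPM and desmoplakin (DSP) at 182 TPM, both parts of desmosomes, did not differ beyond their spread. The lowest of the list was PKP3 at 21.3 TPM, still above the median detected coding gene.

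Of 12 genes of the mesenchymal state 6 were detected and 6 were low, where 63.2% of coding genes that are not overlapped were detected. Vimentin (VIM), the mesenchymal intermediate filament, had 3, 7 and 9 counts, a mean of 0.242 TPM. ZEB1, which represses E-cadherin, had 3, 3 and 4 counts, and ZEB2 stood at 0.0138 TPM. N-cadherin (CDH2) stood at 0.23 TPM. The 6 detected were fibronectin (FN1) at 151 ± 5.81 TPM, S100A4 at 53 ± 9.24, TWIST2 at 23.3 ± 2.21, SNAI1 at 5.27 ± 0.684, AXL at 3.10 ± 0.299 and SPARC at 1.07 ± 0.0555. FN1 and S100A4 are also made by many epithelial lines.

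Host transcripts of microRNAs known from epithelial cells were among the non-coding RNAs. MIR205HG, the host of miR-205, was the fourth of the long non-coding genes with 310, 299 and 328 TPM, after MALAT1 at 596 ± 14.2, NORAD at 477 ± 29.1 and LRRC75A-AS1 at 415 ± 32.5 TPM. In LRRC75A-AS1, 54.3% of the exon bases lie inside other genes. ZFAS1 at 194, GAS5 at 136, LINC00942 at 132 and SNHG8 at 121 TPM completed the first 8. Over exon bases outside other genes this order turned, with LRRC75A-AS1 at 848 TPM above MALAT1 at 595, and ZFAS1 at 342 TPM above MIR205HG at 292 TPM. MIR200CHG, the host of miR-200c and miR-141, stood at 69, 48.3 and 61.9 TPM and was named after its level had been seen. The miR-200 family is known to silence ZEB1 and ZEB2, and miR-205 shares that role. Mature microRNAs were not measured here. Their sequences are printed to show how the seeds relate, with the seed (bases 2 to 8) in capitals, from RefSeq (GRCh38.p14). Counted from the 5′ end of the microRNA, the seeds of miR-200c and miR-141 differ by U4C.
miR-205-5p: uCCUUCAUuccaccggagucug
miR-200c-3p: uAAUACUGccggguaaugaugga
miR-141-3p: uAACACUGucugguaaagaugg

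Lineage transcription factors split into a highly expressed group and a near-absent group. EHF, an epithelial ETS factor, was the highest of the 17 at 165, 147 and 152 TPM. KLF5 had 143, 131 and 137 TPM and FOXA1, a pioneer factor of endoderm-derived epithelia, 128, 120 and 126 TPM. GRHL2, which maintains epithelial junction genes, followed at 70.7 ± 3.31 TPM and ELF3 at 32 ± 2.77 TPM. ELF3 has 66.1% of its exon bases inside antisense genes, and over its other exon bases its level was 88.4 TPM. In all 8 of 17 were detected, the lowest of them HOPX at 1.11 TPM. GATA6 stood at 1.31 TPM, while FOXA2 (0.387 TPM) and the liver and gut factor HNF4A (0.0371 TPM) were low. NKX2-1 and SOX9 were at 0 and overlapped.

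Surfactant genes, which define alveolar type 2 cells, were close to 0. SFTPC had 1 count in the 3 libraries together, SFTPB 15, 10 and 11 counts (0.613 TPM), SFTPA1 0.0841 TPM and SFTPA2 0.124 TPM. SFTPD was at 0 with no overlap, and NAPSA was at 0 and overlapped. Of the 12 alveolar type 2 markers 4 were detected. They were the protease gene CTSH at 73 ± 2.8 TPM, the surfactant lipid enzyme LPCAT1 at 63.2 ± 3.14, LAMP3 at 10.2 ± 0.638 and the lipid transporter ABCA3 at 6.62 ± 1.32 TPM. CTSH and LPCAT1 are also expressed outside the alveolus. Among alveolar type 1 markers, CAV1 at 52.8 ± 2.27 and EMP2 at 44.5 ± 2.78 TPM were the highest of 6 detected of 10. CAV2, RTKN2, AGER at 5.08 TPM and HOPX were also detected, whereas AQP5 stood at 0.175 TPM and PDPN was at 0.

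Airway secretory genes were partly on. SLPI, a secreted protease inhibitor of airway lining fluid, had 922, 819 and 881 TPM, and lipocalin 2 (LCN2), which binds bacterial siderophores, 726, 733 and 779 TPM. WFDC2 at 187 ± 12.5 and BPIFB1 at 184 ± 10.5 TPM did not differ beyond their spread. The mucin chaperone AGR2 stood at 152 ± 6.53 TPM, the goblet cell factor SPDEF at 36.1 ± 5.54 and BPIFA1 at 34.1 ± 2.19 TPM. The gel mucin MUC5B had 69.3, 70.8 and 82.6 TPM, and 116 TPM over the exon bases outside its antisense gene. Against it, the other airway gel mucin MUC5AC had 3, 14 and 15 counts (0.119 TPM), and the club cell gene SCGB1A1, SCGB3A1 and TFF3 were at 0. In all 8 of 17 secretory markers were detected, where 63.2% of coding genes that are not overlapped were detected. SCGB1A1 has 55.8% of its exon bases inside another gene.

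Of 9 membrane mucin genes 3 were detected, each with little spread. MUC16, which carries the CA125 epitope, had 148, 151 and 150 TPM, MUC1 49.3, 46.7 and 51.1 TPM and MUC4 33, 35.7 and 37.2 TPM. MUC21 stood at 0.0208 TPM, MUC13 was at 0, and MUC15 was at 0 and overlapped.

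Of other airway cells, basal and neuroendocrine markers were mostly undetected, and ciliated cell markers were detected at low levels. Of 11 basal and squamous markers 4 were detected, with KRT15 at 40.1 ± 4.25 TPM and TP63, the basal cell factor, at 28, 31 and 50 counts (0.983 ± 0.228 TPM). KRT5 stood at 0.168 and KRT14 at 0.148 TPM, and SOX2 and NGFR were at 0 and overlapped. Of 10 ciliated cell markers 7 were detected, led by RSPH1 at 7.20 ± 0.147 and CAPS at 6.78 ± 0.741 TPM, with CAPS at 23.7 TPM over exon bases outside other genes, and the ciliary factor FOXJ1 stood at 2.68 ± 0.478 TPM. CCDC78 and SNTN were at 0. Of 11 neuroendocrine markers 2 were detected, and UCHL1, a neuronal ubiquitin hydrolase, stood highest with 116, 105 and 117 TPM. CHGA (0.101) and SYP (0.507 TPM) were low, INSM1 and GRP were at 0, and NEUROD1 and CALCA were at 0 and overlapped.

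Markers of blood, liver and stromal cells were at or near 0 with few exceptions. In bulk RNA, fewer cells of a type and less RNA per cell cannot be told apart. None of 6 erythroid and 10 liver markers was detected: HBA1, HBA2, HBB, HBD, ALB, APOA1, TTR, APOB and APOH were at 0, and the highest of these lists was FGB at 0.614 TPM. HBA1 and HBA2 are near-identical copies, so their zeros are uncertain. Among 14 immune markers 2 were detected, CD14 at 9.74 ± 1.39 and CSF1R at 1.70 ± 0.184 TPM, while PTPRC, the common leukocyte antigen, stood at 0.169 TPM. CD68 was at 0 and overlapped, and MS4A1 was at 0. The summed level of the immune list ran from 13.2 to 17.3 TPM. Of 10 fibroblast markers COL1A1 alone was detected, at 4.45 ± 0.233 TPM. COL1A2, the partner chain of the same collagen, had 0.00587 TPM and COL3A1 0.0181 TPM. DCN and LUM were at 0, and ACTA2 and THY1 were at 0 and overlapped.

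A few markers of endothelium, muscle and nerve were detected while most of their lists were not. PECAM1, an endothelial adhesion gene, had 28.2, 29.3 and 28.5 TPM and CDH5, the endothelial cadherin, 7.36, 6.26 and 7.43 TPM, whereas KDR and ROBO4 were at 0, EMCN stood at 0.0118 and VWF at 0.0571 TPM. The oxygen-binding muscle gene MB (myoglobin) had 31, 29.9 and 29.6 TPM and the cardiac troponin gene TNNT2 0.956 ± 0.192 TPM, with ACTA1, CKM and MYH7 at 0, DES at 0.187 TPM, and MYH1, MYH2 and TTN at 0 and overlapped. Of 10 neuron and glia markers MBP at 13 ± 1.29 and GAD1 at 1.91 ± 0.0999 TPM were detected, with GFAP at 0.0832 TPM, and SNAP25, AQP4 and OLIG2 were at 0 and overlapped.

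Among 17 germline and cancer-testis genes 3 were detected, all of the MAGEA cluster on chromosome X. MAGEA6 had 94.8, 78.6 and 93.3 TPM, MAGEA3 51.9, 45.6 and 53.8 TPM and MAGEA1 4.43, 4.25 and 4.66 TPM. MAGEA3 and MAGEA6 are near-identical, so their split is uncertain. MAGEA4, MAGEC2, SSX1, XAGE1B, PAGE1, GAGE1, CTAG1B and DAZL were at 0, several of them multicopy genes whose reads may map to more than 1 place, MAGEA10 was at 0 and overlapped, and PRAME stood at 0.215 TPM.

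**Figure D2:**
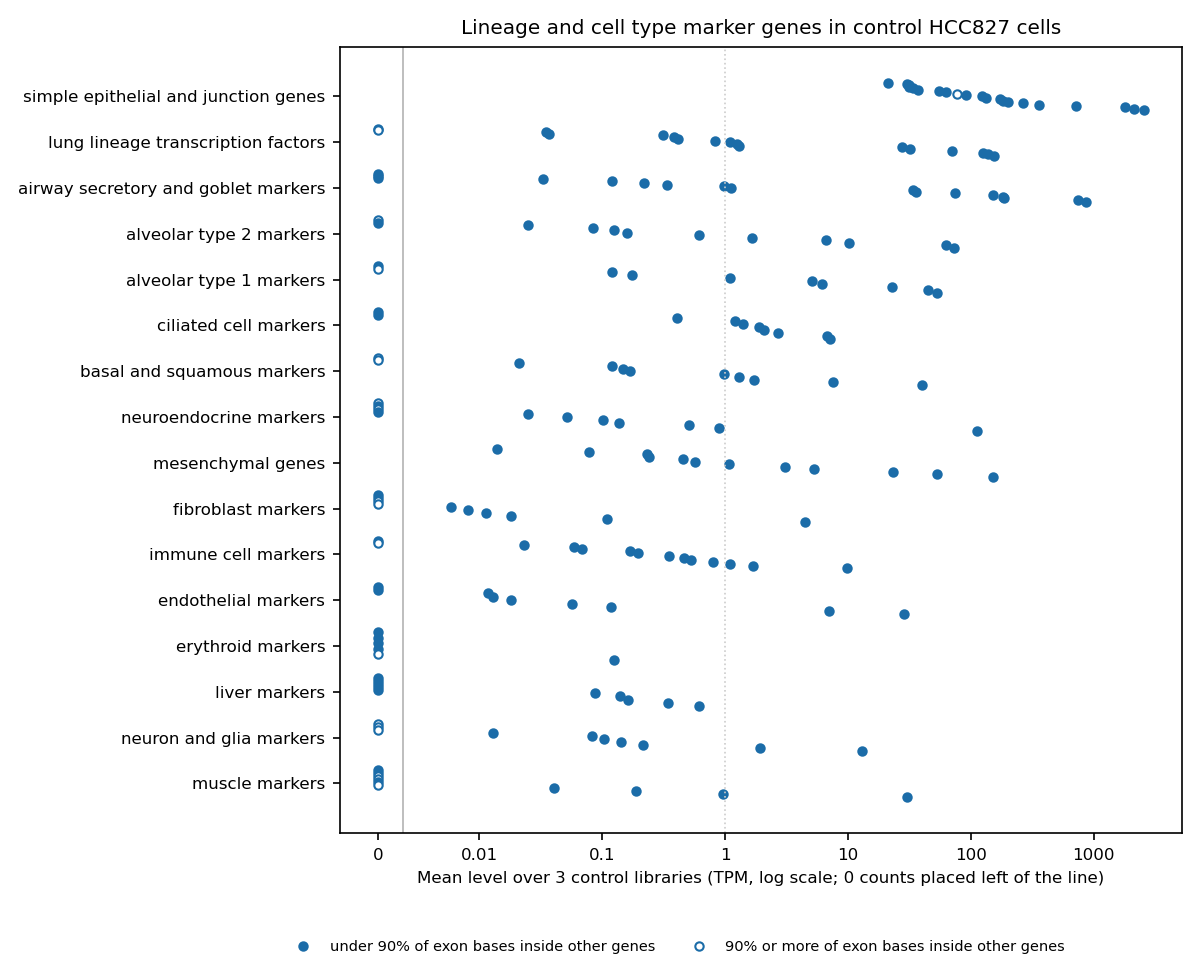
Mean level of each marker gene over the 3 control libraries (horizontal axis, TPM on a log scale, with genes at 0 counts placed left of the grey line), by marker list (vertical axis); filled points are genes with under 90% of exon bases inside other genes and open points the rest. All 21 simple epithelial genes lie above 20 TPM, while the erythroid and liver lists stay under 1 TPM.

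EGFR had by far the highest level of the ERBB receptor genes. EGFR (ENSG00000146648, chromosome 7 from 55019021 to 55211628) had 13763, 15874 and 17325 counts, 1089 ± 11.1 CPM, and 260, 249 and 256 TPM. Its CV in CPM was 1.02%, and its level lay at percentile 97.4 of the detected coding genes. ERBB3, which has little kinase activity of its own, followed at 52.4, 49.9 and 57.4 TPM and ERBB2 at 43.2, 39.1 and 46 TPM. EGFR was above both in every library, and ERBB3 above ERBB2 within each library. ERBB4 had 1, 2 and 1 counts, 0.0209 TPM, at the limit that these depths allow.

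Ligands of EGFR were made at moderate to low levels. TGFA had 46.7, 41.1 and 42.1 TPM and HBEGF 20.5, 20.4 and 19.3 TPM. EGF followed at 13 ± 1.49, and BTC at 6.45 ± 0.698 and amphiregulin (AREG) at 5.17 ± 0.697 TPM did not differ beyond their spread. EREG was the lowest of the 6 detected ligands of 11, at 1.90 ± 0.0979 TPM. The neuregulins, ligands of ERBB3 and ERBB4, were low, with NRG1 at 0.0828, NRG2 at 0.198, NRG3 at 0.0122 and NRG4 at 0.154 TPM.

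Of 26 other receptor tyrosine kinases 12 were detected, where 63.2% of coding genes that are not overlapped were detected. The collagen receptor DDR1 led with 82.5, 74.7 and 88.2 TPM, followed by EPHA2 at 69.5, 62.7 and 74.7 and EPHB4 at 55.6, 46.8 and 58 TPM. MET, the receptor for hepatocyte growth factor, had 47.4, 45.9 and 44.2 TPM, a range that overlapped that of EPHB4. Within each library EPHB4 was above MET. MST1R stood at 15.9, FGFR3 at 14.6, INSR at 10.0, IGF1R at 8.66 and TYRO3 at 5.66 TPM. Over exon bases outside other genes IGF1R was 2.24 times as high, so its place in this order is uncertain. AXL, known as a bypass receptor under EGFR inhibition, was low among them at 3.17, 3.35 and 2.77 TPM, and FGFR1 was the lowest detected at 1.27 TPM. ALK (0.101) and RET (0.0179 TPM), which fuse in other lung adenocarcinomas, were low. KIT, ROS1 and KDR were at 0. ROS1 and KDR have 84% and 40.9% of their exon bases inside other genes.

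**Figure D3:**
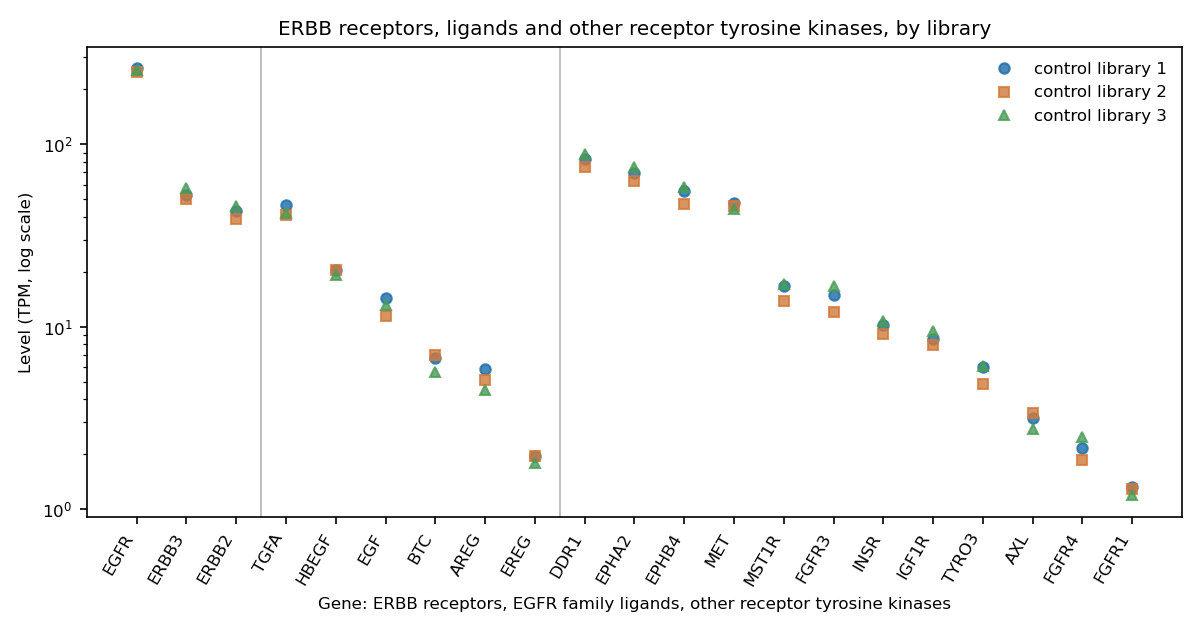
Level of each detected ERBB receptor, EGFR family ligand and other receptor tyrosine kinase (vertical axis, TPM on a log scale) in control libraries 1, 2 and 3 (circles, squares and triangles), ordered by mean within each group. EGFR stands at 249 to 260 TPM, above every other gene shown, and the 3 libraries of a gene lie close together.

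The RAS and MAP kinase cascade was complete, with 18 of 18 members detected and a median of 31.7 TPM. NRAS stood highest at 190, 174 and 178 TPM, then PTPN11, the phosphatase SHP2 that passes receptor signals to RAS, at 146, 131 and 129 TPM. Over exon bases outside other genes RASA1 stood at 156 TPM, between NRAS and PTPN11, against 41.2 TPM over all its exon bases. The adaptors SHC1 at 74.2 ± 2.7 and GRB2 at 73.3 ± 5.33 TPM did not differ beyond their spread. BRAF was the lowest at 7.39 TPM.

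In the PI3K and AKT pathway 17 of 18 genes were detected, with a median of 18.3 TPM. RHEB, the activator of mTOR, led at 89.5 ± 2.73 TPM. AKT2 stood at 22.5 ± 1.94 and AKT1 at 18.3 TPM. PIK3CB at 46.6 ± 0.835 TPM stood above PIK3CA at 16.8 TPM, and RICTOR at 44.2 ± 1.56 TPM above RPTOR at 17.4 TPM. PIK3R1, the regulatory subunit, was the lowest detected at 2.96 TPM, and PIK3R2 was at 0 and overlapped.

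Genes known as ERK output were expressed, 17 of 19, with a median of 33.5 TPM. CCND1, the cyclin that drives entry into the cell cycle, had 291, 264 and 286 TPM. The ERK phosphatase genes DUSP4 at 142 ± 7.39, DUSP5 at 72.3 ± 4.58 and DUSP6 at 56.3 ± 1.07 TPM were all present. Over exon bases outside other genes DUSP6 was 1.57 times as high, so its order with DUSP5 is uncertain. IER3 stood at 103 ± 10.7 and ERRFI1, which binds and inhibits EGFR itself, at 97, 85.4 and 90.7 TPM. SPRY1, SPRY2 and SPRY4 lay at 14.1, 21.6 and 22 TPM and SPRED1 and SPRED2 at 22.3 and 42.2 TPM. SPRED3 was the lowest detected at 2.65 TPM, ETV1 was low at 0.19 TPM and ETV4 was at 0 and overlapped. All 12 EGFR regulators and adaptors were detected. After ERRFI1 came STAT3 at 69.4 ± 5.45, EPS15 at 59.1 ± 2.02 and CBLC at 45.9 ± 3.13 TPM, and LRIG1, a negative regulator of EGFR, was the lowest at 2.29 TPM.

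Genes that flank EGFR on chromosome 7 were detected in 9 of 13 cases, where 55.7% of all coding genes were detected. Levels of the flanking genes ranged widely around a median of 93.4 TPM, against 5.50 TPM over all coding genes, overlapped genes left out of both. The flanking list was chosen by hand and holds the non-coding ELDR, so neither comparison is exactly like with like. CHCHD2 had 1051, 912 and 1033 TPM, the chaperonin gene CCT6A 622, 574 and 602 TPM and the translocon gene SEC61G 197, 163 and 176 TPM. SUMF2 at 173 ± 14.6 TPM did not differ from SEC61G beyond their spread, and VOPP1 stood at 114 ± 11.4 TPM. LANCL2, which lies next to VOPP1 between EGFR and CHCHD2, was lower at 28.5 ± 0.827 TPM, and PHKG1 was the lowest detected at 1.56 TPM. VSTM2A and the non-coding ELDR were at 0, and MRPS17 and ZNF713 were at 0 and overlapped. Levels of RNA do not give the number of gene copies.

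Among 23 driver and suppressor genes of lung cancer 20 were detected. Below CCND1, MYC had 114, 121 and 127 TPM and NFE2L2 85.3, 81.6 and 82.4 TPM. STK11, which activates AMPK, stood at 9.43, 7.61 and 10.3 TPM. BRAF, given above, was the lowest detected, and TERT was low at 0.13 TPM. CDKN2A and CDKN2B were at 0 and overlapped. RNA counts per gene do not show whether a transcript carries a mutation.

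The targeted gene of the series and its paralogs were all expressed in these control cells. They encode the HP1 proteins, which bind methylated histone H3 in heterochromatin. CBX3 had 134, 115 and 117 TPM, CBX1 88.5, 81.2 and 76 TPM and CBX5 (ENSG00000094916, chromosome 12 from 54230940 to 54280133) 77, 71.7 and 74.7 TPM. CBX3 was above the other two in every library. The ranges of CBX1 and CBX5 overlapped, though CBX1 was the higher within each library. CBX5 lies beside HNRNPA1, and 17.5% of its exon bases lie inside other annotated genes. On the CPM scale CBX5 spread little, 382 ± 3.44 CPM, a CV of 0.902%.

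Genes of the secretory pathway were detected almost in full. The medians of the 3 lists below lay above the 17.5 TPM of detected coding genes, though single members lay under it. At the entry to the endoplasmic reticulum (ER), 22 of 22 translocon and signal peptide genes were detected, with a median of 72.9 TPM. SRP9 stood highest at 548 ± 46.6 TPM, then SEC61G, given above, TRAM1 at 154 ± 7.8 and SRP14 at 145 ± 4.19 TPM, and SSR1 at 15.7 TPM was the lowest. Over exon bases outside other genes SSR1 stood at 111 and SEC61A1 at 193 TPM, and SEC11C was the lowest at 16.5 TPM.

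ER chaperones included the highest single genes of the ER and Golgi lists. HSPA5, the central ER chaperone BiP (ENSG00000044574, chromosome 9 from 125234853 to 125241330), had 1455, 1283 and 1378 TPM, and lay at percentile 99.7 of the detected coding genes. The lectin chaperones followed, CALR at 1273, 1200 and 1275 TPM and CANX at 1083, 1006 and 1013 TPM. HSP90B1 at 1059, 1004 and 993 TPM did not differ from CANX beyond their spread, though CANX was the higher within each library. Of 20 chaperones and disulfide enzymes 19 were detected, with a median of 98.5 TPM. ERO1B at 13.7 TPM was the lowest over all exon bases, but stood at 44.6 TPM over those outside other genes, where CRELD2 was the lowest at 15.8 TPM and CALR at 1354 TPM exceeded HSPA5 at 1284 TPM. TXNDC5 was at 0 and overlapped. SDF2L1, at 36 TPM, was among the 10 genes with the largest CV.

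The element marked in the HSPA5 promoter above was searched as CCAAT, 9 bases of any kind and CCACG on both strands. It was found in 22 of 27305 promoters of the table (0.0806%) and in 6 of 19 ER chaperone genes that have a promoter there, HSPA5, HSP90B1, CALR, CANX, ERO1B and CRELD2. The 6 included the 4 highest levels of the list and also CRELD2 at 16 TPM. A match of letters is a description and not evidence of binding.

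Transport from ER to Golgi was detected in 25 of 26 genes, with a median of 101 TPM. KDELR1, which returns chaperones to the ER, stood at 403 ± 18.7 TPM, TMED2 at 296 ± 14.5, GOLM1 at 255 ± 0.844 and SURF4 at 234 ± 15.4 TPM. SAR1B was the lowest detected at 20.5 TPM, and KDELR2 was at 0 and overlapped.

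Secreted signals were detected less often than genes of the secretory pathway, in 20 of 40 cytokine and growth factor genes. Of all coding genes, 55.7% were detected. The median of the list was 4.18 TPM, against 5.50 TPM over all coding genes that are not overlapped. Midkine (MDK) had 99.6, 107 and 109 TPM, CXCL16 74.9, 73.7 and 77.1 TPM and WNT5A 55.6, 49.8 and 52 TPM. PDGFB at 49 ± 5.06, the neutrophil attractant CXCL8 at 38 ± 5.22 and VEGFA at 37.5 ± 1.16 TPM overlapped in turn. IL11 was the lowest detected at 1.66 TPM. The inflammatory cytokines IL6 (0.159), TNF (0.516), IL1A (0.571) and IL1B (1.09 TPM) were low. CXCL6, CSF2, IL33, TSLP and FGF2 were at 0, and CXCL10, CCL5, IL18 and MIF were at 0 and overlapped.

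Secreted proteases and inhibitors were detected in 17 of 29 cases, where 55.7% of all coding genes were detected. The lysosomal and secreted protease cathepsin L (CTSL) had 171, 149 and 151 TPM and the inhibitors SERPINB1 154 ± 8.91 TPM and SPINT1 134 ± 12.4 TPM, whose ranges overlapped in turn. SERPINE2 stood at 104 ± 5.68 TPM. KLK6 stood at 57.3 TPM, but at 367 TPM over exon bases outside other genes, the highest of the list on that scale. MMP13 was the lowest detected at 1.31 TPM. MMP9 (0.143) and MMP2 (0.0376 TPM), the gelatinases, were low and MMP3 was at 0. TIMP1, TIMP3, PLAU, MMP1, MMP10 and SERPINA3 were at 0 and overlapped.

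Matrix genes were led by cell-bound and bone matrix proteins. Osteopontin (SPP1) had 569, 522 and 516 TPM and its receptor CD44 533, 504 and 509 TPM, with overlapping ranges. Within each library SPP1 was above CD44. Syndecan 4 (SDC4) stood at 371 ± 29.9 TPM and the laminin chain LAMA5 at 206 ± 30.4 TPM. Among other laminin chains, LAMB3 stood at 127 ± 14.3 and LAMA3 at 5.49 TPM. In all 17 of 19 were detected, with a median of 62.7 TPM, COL4A2 the lowest at 3.48 TPM and NID1 low at 0.0112 TPM.

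Glycolysis was expressed from uptake to lactate. Of 26 genes 22 were detected, with a median of 66.9 TPM. After GAPDH came ALDOA at 728, 668 and 792 TPM, LDHB at 728, 582 and 668 TPM and LDHA at 628, 584 and 597 TPM. PKM stood at 375 TPM, the glucose transporters SLC2A3 and SLC2A1 at 104 and 90.8 TPM, and hexokinases HK1 and HK2 at 131 and 51.5 TPM. ENO3, the muscle enolase, was the lowest detected at 1.79 TPM. The liver isozyme PKLR was at 0, and ALDOC was at 0 and overlapped. In gluconeogenesis FBP1 had 75.3, 60.9 and 68.5 TPM and PC 18.5 ± 1.36 TPM, while G6PC (0.0239) and PCK1 (0.0181 TPM) were low and PCK2 and FBP2 were at 0 and overlapped.

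The pentose phosphate pathway, whose oxidative branch makes NADPH, had a high median. In that branch PGD had 638, 608 and 668 TPM. In the non-oxidative branch TKT stood at 379 ± 31.7, TALDO1 at 241 ± 17.9 and RPIA, the lowest, at 28.1 TPM. All but TKTL1, at 0, of the 8 genes were detected, and the median was 164 TPM.

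Enzymes that detoxify aldehydes, quinones and peroxides included single genes with higher levels. AKR1B10, an aldo-keto reductase (ENSG00000198074, chromosome 7 from 134527592 to 134541408), had 1561, 1355 and 1475 TPM, AKR1B1 1351, 1133 and 1320 TPM and NQO1, the quinone reductase, 1009, 837 and 933 TPM. PRDX1 stood at 841 ± 82.1, TXN at 737 ± 72.8 and TXNRD1 at 601 ± 41.7 TPM. Among the 32 enzymes measured, 25 were detected, with a median of 169.9 TPM. Many of these genes, with PGD, are known targets of NRF2, encoded by NFE2L2. HMOX1, another such target, stood at 8.71 TPM, GCLM at 133 and GCLC at 38.9 TPM, and GSTA4 was the lowest detected at 4.84 TPM. AKR1C1, AKR1C2 and AKR1C3 are related gene copies and were at 0, and these zeros are uncertain and not read as absence. GSTA1 was at 0, and GSTM1, PRDX2 and GPX2 were at 0 and overlapped.

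Of 20 cytochrome P450 genes 7 were detected, where 55.7% of all coding genes were detected. CYP1B1, which oxidises aromatic hydrocarbons, had 155, 144 and 138 TPM, CYP2S1 37.4 ± 3.44, CYP26A1, which clears retinoic acid, 16.9 ± 3.02, CYP2J2 8.34 ± 0.322 and CYP3A5, the lowest, 1.33 TPM. CYP1A1 (0.023) and CYP1A2 (0.0578 TPM) were low, and CYP2A6, CYP2C19, CYP2D6 and CYP3A7 were at 0 and overlapped.

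The mitochondrial and lipid pathways were broadly detected. In the TCA cycle, 22 of 24 genes were detected with a median of 73.3 TPM, from cytosolic IDH1, which yields NADPH, at 614, 574 and 588 TPM, to IDH3A at 6.77 TPM, with DLST at 225 ± 16.9, MDH2 at 207 ± 13.9 and FH at 138 ± 13.3 TPM between them. SDHD and MDH1 were at 0 and overlapped. Of 15 nuclear ATP synthase genes 11 were detected, ATP5F1B highest at 650 ± 68.7 and ATP5F1D lowest at 32.9 TPM, and the 4 others were overlapped, with ATP5PD, ATP5MC1 and ATP5PO at 0. In fatty acid synthesis 15 of 16 were detected with a median of 81.9 TPM. The desaturase SCD had 899, 826 and 883 TPM, ACSL3 246 ± 10.9, FASN 179, 157 and 201 and ACLY 108 ± 8.14 TPM, and ACACB was lowest at 3.71 TPM. FADS1 was at 0 and overlapped. Fatty acid oxidation had a median of 22 TPM, with 12 of 17 detected, HADHA at 189 ± 8.79, ACADVL at 149 ± 15.8 and CPT2 the lowest at 1.94 TPM. CPT1B, ACADL and ETFB were at 0 and overlapped.

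Genes of cholesterol synthesis and uptake were detected in 15 of 17 cases, with a median of 23.2 TPM. SREBF2, the transcription factor that controls them, stood at 85 ± 6, FDFT1 at 77.4 ± 3.36 and DHCR7 at 47.6 ± 2.72 TPM. MVK was the lowest detected at 4.5 TPM. CYP51A1 was at 0 with 3.85% of its exon bases inside the annotated genes used here, and its zero is listed without reading it as absence, since the annotation release behind the counts is not given in the sources used here.

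Pathways that make amino acids and nucleotides were detected almost in full. All 12 genes of serine, glycine and folate metabolism were detected, PSAT1 highest at 350 ± 18 TPM, then SHMT2 at 116 ± 8.14 and PHGDH at 81.1 ± 8.79 TPM, with ALDH1L1 at 0.851 TPM. MTHFD2 stood at 51.7 TPM, but at 187 TPM over exon bases outside other genes, above SHMT2. All 14 of nucleotide synthesis were detected, with ATIC at 255 ± 11, IMPDH2 at 172 ± 10.8, PAICS at 72.2 ± 1.87, RRM1 at 57.2 ± 3.14 and DHODH lowest at 4.48 TPM. In glutamine and amino acid supply 12 of 13 were detected. ASS1, the arginine synthesis enzyme, had 318, 277 and 309 TPM and the transporter SLC38A2 321, 274 and 294 TPM, while SLC3A2 stood at 155 ± 19.1 and GOT2 at 144 ± 9.7 TPM. ASL, which completes arginine synthesis, stood at 13.1 TPM, or 23.7 TPM over exon bases outside other genes. GLS2, the liver-type glutaminase, was low at 0.514 TPM.

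Division and replication genes were expressed. Of 17 division and replication genes 16 were detected, with a median of 61.9 TPM. After CCND1 came the replication clamp gene PCNA with 287, 243 and 284 TPM, TOP2A with 203, 196 and 192 TPM and CCNB1 with 149, 128 and 146 TPM. The proliferation marker MKI67 stood at 77.7 TPM and CCNE1, the lowest detected, at 9.17 TPM. CDK2 was at 0 and overlapped.

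**Figure D4:**
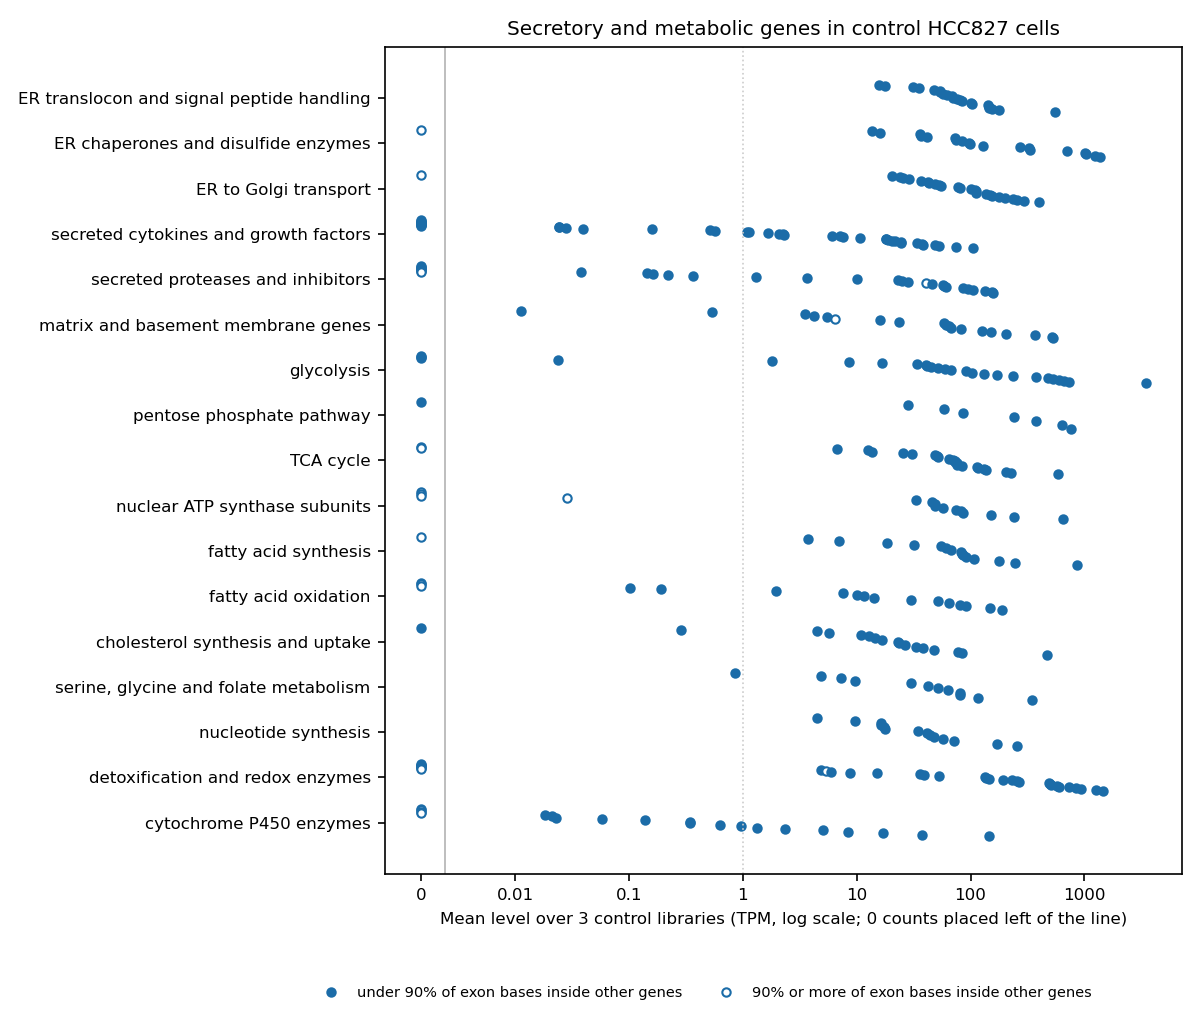
Mean level of each secretory and metabolic gene over the 3 control libraries (horizontal axis, TPM on a log scale, with genes at 0 counts placed left of the grey line), by list (vertical axis); filled points are genes with under 90% of exon bases inside other genes and open points the rest. Every gene of the translocon, ER chaperone and ER to Golgi lists lies above 10 TPM except the overlapped TXNDC5 and KDELR2 at 0, while the cytokine and cytochrome P450 lists spread from 0 to above 100 TPM.

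By chromosome, detected coding genes of chromosome 20 had the highest levels. Over genes that were not overlapped, the median of 305 detected genes there was 36.2, 33.3 and 37.1 TPM in libraries 1, 2 and 3, and 20.3% of them lay above 100 TPM. On the other autosomes and X the median over the mean levels ran from 10.2 TPM on chromosome 15 to 21.6 TPM on X, and the share above 100 TPM from 1.99% on chromosome 18 to 12.7% on X. Of 210 windows of 10 Mb with at least 20 detected coding genes, chromosome 20 held 3 of the first 6. The window from 50 to 60 Mb had a median of 46.9 TPM over 36 genes, that from 30 to 40 Mb 43.5 TPM over 70 genes and that from 0 to 10 Mb 38.3 TPM over 54 genes. The first window of all was on X from 110 to 120 Mb, with 50.03 TPM over 24 genes, and X from 130 to 140 Mb had rank 3 with 46.1 TPM over 31 genes. On chromosome 20 the window from 10 to 20 Mb was ordinary, with 19.9 TPM over 24 genes. Chromosome 7, which carries EGFR, had a median of 16.5 TPM. The comparison by chromosome and window was not tested, and gene content differs between chromosomes.

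**Figure D5:**
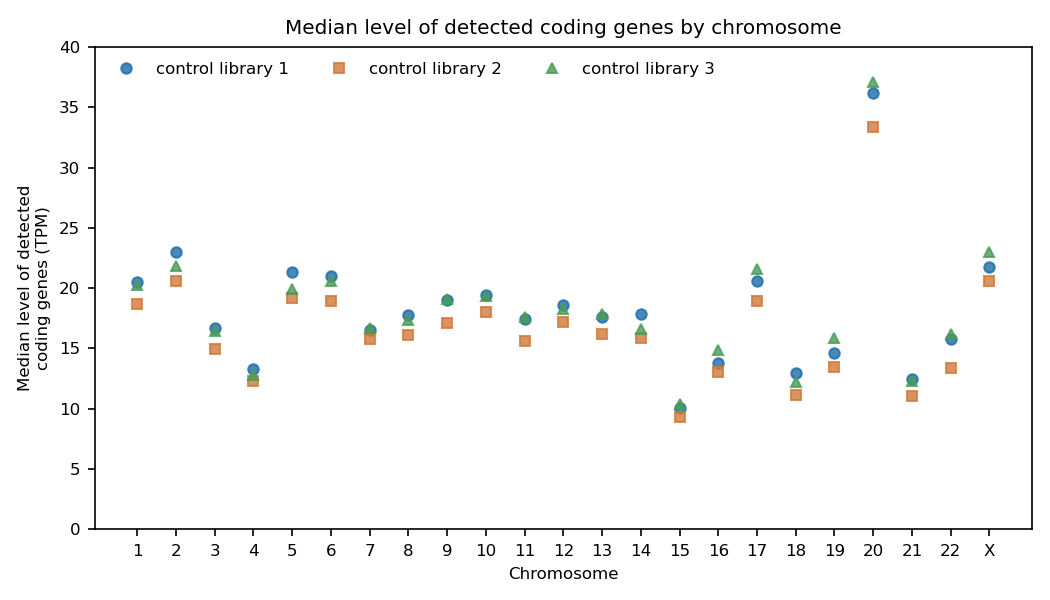
Median level of detected protein-coding genes that are not overlapped (vertical axis, TPM, from 0) by chromosome (horizontal axis) in control libraries 1, 2 and 3 (circles, squares and triangles). Chromosome 20 stands at 33.3 to 37.1 TPM in the 3 libraries, above every other chromosome in each.

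Among the genes that differed most between the 3 libraries, library 3 was most often the high one. Of 8679 genes with a mean of at least 10 CPM, 12 had a CV above 20%. The 10 with the largest CV were MT-TS1, E4F1, RAVER1, MFSD10, TIFA, SDF2L1, ZNF219, TNK1, ARL6IP6 and CENPX, of which 7 were highest in library 3 and 3 in library 1. Among the 100 with the largest CV, 70 were highest in library 3, 24 in library 1 and 6 in library 2, while over all 8679 the numbers were 3314, 3581 and 1784. FTH1, the ferritin heavy chain gene, stood at 442, 598 and 633 TPM, low in library 1. It has 71% of its exon bases inside BEST1, so its level is uncertain as well.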

How the data were processed

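Polyadenylated RNA of HCC827 cells was sequenced, and the authors deposited a table of whole-number read counts by Ensembl identifier that had not been normalized. The submitters' processing notes name HTSeq 0.6.0, TopHat2 2.1.0 and the build hg38. Libraries were made strand-specific with dUTP, per the labels' protocols, but for the counting the strand setting, feature type and annotation release were not given in the sources used here. RNA without a poly-A tail is sampled poorly by this method.

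Of 60675 identifiers 57055 matched GENCODE release 29 (GRCh38), which gave symbols, positions and exon lengths; the others held 0.0283% of the counts. CPM and TPM (over the union of exons) were computed with Python 3.11.15 and pandas 2.3.3. The TPM computation was run on counts simulated from known levels. The simulation used the same exon lengths and no loss of reads to overlap, so it checks the arithmetic only. TMM factors came from edgeR 4.0.16 and size factors from DESeq2 1.42.0, in R 4.3.3, for alternatives only.

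There were 51 gene lists written by hand, and ribosomal protein genes by symbol pattern. The members and lists were chosen with earlier results of these data known, and the 90% overlap limit after zeros had been seen. Named genes were, per list, the 4 highest, the lowest detected and those at 0, with preset genes such as EGFR and VIM, the 25 highest levels and the 8 highest long non-coding genes. Further members were named after their levels had been seen. Some items are not reported here.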

Additional observations from a re-analysis of the deposited data

How the results depend on the processing

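The number of detected genes, 11925, was 12814 at 0.5 CPM, 12465 at 10 counts, 11983 at 1 TPM, 16549 at 1 or more counts in every library, 12045 to 12056 with 1 replicate left out, 11925 with TMM or DESeq2 scaling and 11819 without overlapped genes, an alternative chosen after seeing the data. Mitochondrially encoded genes took 16.1 ± 1.42% of counts but 48.5% of TPM. The 100 most counted genes took 29.1 ± 1.17% of counts, 58.6% of TPM, and 16.9% of counts without mitochondrially encoded genes. At 0.5 CPM the immune list had 4 detected members and the liver list 1, and at 1 TPM the neuroendocrine and muscle lists had 1 each. Among 630 detected named genes, the longest transcript in place of the exon union moved 124 levels beyond 1.5-fold (0.816 to 2.97). Exon bases outside other genes, also chosen after seeing the data, moved 55 of 623, up to 11.2-fold in ALDH1A3. Leaving out replicate 1 moved MT-TS1 alone beyond 1.5-fold, to 0.645 of its level, and TMM scaling moved none. Depth limits genes under about 3 counts, and TPM order is uncertain for overlapped genes and near-identical copies. No paired analysis was possible because only 1 group was described and no test was made.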
